A study of Rattus norvegicus with 8 samples.

Results

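The endoplasmic reticulum stress response and the integrated stress response were followed through 35 rat genes in kidneys of rats given saline or colistin. The genes were taken from a fixed list of symbols, and their probes were found through the RefSeq accession that the array gives each probe. Of the 35 genes, 32 had a named probe, 37 probes in all, and all 32 passed the filter on dim probes, among 12411 genes tested and 15637 named genes on the array. Manf, Edem1 and Derl2 had no named probe and were not analysed here. The 32 genes comprised 14 chaperones and folding factors, 5 genes of ER-associated degradation and translocation, 5 stress sensors and transcription factors, and 8 targets of the transcription factors ATF4 and CHOP.

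The series set kidney RNA of male rats (age label 10 weeks, day 28) side by side in 4 samples given saline and 4 given 30 mg/kg colistin, a polymyxin antibiotic limited by its toxicity to kidney tubules. The title speaks of injured renal tubules, the sample labels say kidney, and no label names a strain, a dosing schedule or a separation of tubules. Samples carry replicate numbers, and nothing says that each is a separate animal, so the p-values reflect sample-to-sample spread that may be partly technical. The RNA was amplified to cDNA by SPIA, a linear isothermal method, labelled with 1 dye and hybridised to 1 Agilent array per sample. The 8 arrays lay on 3 slides. Slide 1 held saline arrays 1 and 4 and colistin array 2, slide 2 held saline array 2 and colistin array 3, and slide 3 held saline array 3 and colistin arrays 1 and 4.

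Proteins that enter the secretory pathway are folded in the endoplasmic reticulum by chaperones such as BiP, and misfolded ones are drawn back into the cytosol and destroyed. Sensors in the membrane of this compartment, IRE1, PERK and ATF6, answer an overload: IRE1 splices the XBP1 message, ATF6 is cut to release a transcription factor, and both raise chaperone and degradation genes. PERK, with other kinases that sense amino acid shortage, haem shortage or viral RNA, phosphorylates the initiation factor eIF2, which slows translation in general while the ATF4 message is translated more, and ATF4 turns on genes of amino acid supply, CHOP and feedback inhibitors. The tubule is rich in secreted and membrane proteins, and markers of this response are commonly read in models of toxic tubule injury. Transcript levels show neither XBP1 splicing, nor the cutting of ATF6, nor the phosphorylation of eIF2.

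ATF6 and XBP1 act through short elements close to the start sites of their target genes, and some targets of ATF4 carry an element for ATF4 with a C/EBP partner. The RefSeq promoter table of the build GRCr8, with 250 bases before and 50 after each start, held 29 of the 35 genes. The ER stress element ERSE was searched on both strands as CCAAT, then 9 bases of any kind, then CCACG. It was found in 7 of the 29 (Hspa5, Hsp90b1, Calr, Canx, Creld2, Dnajc3 and Xbp1), against 0.0765% of all 27457 promoters. ERSE-II, searched as ATTGG, 1 base of any kind and CCACG, was found in 3 (Dnajb11, Herpud1 and Hyou1), against 0.0546%. The core of the C/EBP-ATF element CARE, TGATGNAA, was found in 3 (Chac1, Herpud1 and Trib3), against 3.82%. The XBP1 element UPRE, TGACGTGG, was found in Hyou1, where it overlapped an ERSE-II match, against 0.637% of all promoters. The 29 are part of the 27457 promoters, of which 21 in all carried ERSE and 15 ERSE-II. The difference in shares was not tested. A match is a run of letters and not evidence of binding, and a window without a match says nothing about the factor.

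Below are 6 promoters, each 5′ to 3′ along its gene with the matches in capitals. The first 3 are shown because their transcripts hardly differed between the groups although they carry the classic element. Herpud1 is shown because it carries both kinds of element, and Trib3 and Chac1 because their transcripts went opposite ways.
Hspa5, chr3:38452766-38453065 (+ strand), 1 ERSE: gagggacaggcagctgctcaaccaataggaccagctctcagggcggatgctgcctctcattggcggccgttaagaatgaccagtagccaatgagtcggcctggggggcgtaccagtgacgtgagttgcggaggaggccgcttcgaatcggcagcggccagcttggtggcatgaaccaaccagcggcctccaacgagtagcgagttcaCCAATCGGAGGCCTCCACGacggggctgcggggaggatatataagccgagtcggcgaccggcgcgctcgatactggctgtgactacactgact
Hsp90b1, chr7:23012244-23012543 (- strand), 2 ERSE matches: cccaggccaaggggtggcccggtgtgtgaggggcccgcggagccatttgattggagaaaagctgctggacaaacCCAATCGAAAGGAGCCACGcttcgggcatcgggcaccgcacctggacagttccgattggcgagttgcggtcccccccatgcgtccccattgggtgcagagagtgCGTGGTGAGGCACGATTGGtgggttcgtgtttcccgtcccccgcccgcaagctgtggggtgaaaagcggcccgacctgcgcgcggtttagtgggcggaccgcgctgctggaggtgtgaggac
Xbp1, chr14:84604373-84604672 (+ strand), 1 ERSE: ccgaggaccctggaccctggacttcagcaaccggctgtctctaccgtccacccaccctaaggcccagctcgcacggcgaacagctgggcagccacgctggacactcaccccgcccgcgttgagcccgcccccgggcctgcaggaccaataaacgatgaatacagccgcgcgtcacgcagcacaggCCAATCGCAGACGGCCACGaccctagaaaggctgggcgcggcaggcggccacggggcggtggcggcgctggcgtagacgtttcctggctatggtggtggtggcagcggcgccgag
Herpud1, chr19:10614658-10614957 (- strand), 1 CARE then 1 ERSE-II: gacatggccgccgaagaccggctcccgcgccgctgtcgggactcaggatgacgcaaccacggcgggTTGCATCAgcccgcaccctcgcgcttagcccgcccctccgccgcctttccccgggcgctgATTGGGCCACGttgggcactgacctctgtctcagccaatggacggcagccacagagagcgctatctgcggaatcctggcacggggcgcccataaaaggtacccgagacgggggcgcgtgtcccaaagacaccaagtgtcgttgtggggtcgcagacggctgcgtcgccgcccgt
Trib3, chr3:161275484-161275783 (- strand), 1 CARE: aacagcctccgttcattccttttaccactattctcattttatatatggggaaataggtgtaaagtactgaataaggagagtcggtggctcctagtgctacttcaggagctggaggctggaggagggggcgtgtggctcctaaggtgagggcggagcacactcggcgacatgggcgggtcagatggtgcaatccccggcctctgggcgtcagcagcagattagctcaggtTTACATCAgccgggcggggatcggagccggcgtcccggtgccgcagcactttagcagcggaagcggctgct
Chac1, chr3:126795881-126796180 (+ strand), 1 CARE: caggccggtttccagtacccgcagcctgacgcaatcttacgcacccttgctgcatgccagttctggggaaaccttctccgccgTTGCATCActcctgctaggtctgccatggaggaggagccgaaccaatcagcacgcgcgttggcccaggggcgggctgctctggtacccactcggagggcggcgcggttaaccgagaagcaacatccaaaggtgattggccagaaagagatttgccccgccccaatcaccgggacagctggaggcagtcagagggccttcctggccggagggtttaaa

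None of the 32 genes passed the test over all genes. In the comparison of colistin with saline 0 of 32 passed (limma, Benjamini-Hochberg adjusted p), against 2% of all 12411 genes tested. At an unadjusted p under 0.05 the count was 6 of 32, or 18.8%, against 22.7% of all genes. These were Asns, Eif2ak3, Ddit3, Derl1 and Atf4 with positive and Psat1 with a negative difference. The groups did not overlap for 6 genes, 18.8% of the 32 against 18.6% of all genes: Eif2ak3, Ddit3, Derl1 and Dnajc3 higher after colistin, and Psat1 and Chac1 lower. The higher direction accounted for 12.5% of the 32, against 6.89% of all genes, and the lower for 6.25%, against 11.7%. Eif2ak3, counted here and among the positive differences, passed the filter on dim probes only through the colistin arrays, where it was high. Its place in the higher counts is therefore partly set by that filter.

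The processing decided how many of them were called. With normexp background correction, which models the background of each spot and adds an offset of 50, 7 of the 32 passed, 21.9% against 27.3% of all genes. Derl1, Eif2ak3, Atf4, Ddit3 and Asns were higher in that setting, 5 of 32 (15.6%) against 5.51% of all genes, and Psat1 and Chac1 lower, 2 of 32 (6.25%) against 21.8%. The higher count again includes Eif2ak3, which passed the filter on dim probes only through the colistin arrays. With an intensity trend in the variance model Psat1 alone passed (adjusted p = 0.0241, lower, as 1.29% of all genes, with 1.97% higher and 3.26% called in all), and without saline array 4 Asns alone (adjusted p = 0.0302, higher, as 1.53% of all genes, with 2.05% called in all). Over all 12411 genes the median log2 difference was -0.14, and -0.34 with normexp. The median over the 32 genes was 0.36, or 0.24 with normexp, and 21 had a positive and 11 a negative difference. Among all genes 5596 were positive and 6815 negative. Eif2ak3 and Creld2 are among the 21 and enter the median, and both passed the filter on dim probes only through the colistin arrays. Probes well above background on all 8 arrays covered 29 of the 32 genes. With these probes the median was 0.27, and -0.24 over all genes. The median of the 32 genes has no test, since the genes were chosen with earlier results of these data known.

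**Figure D1:**
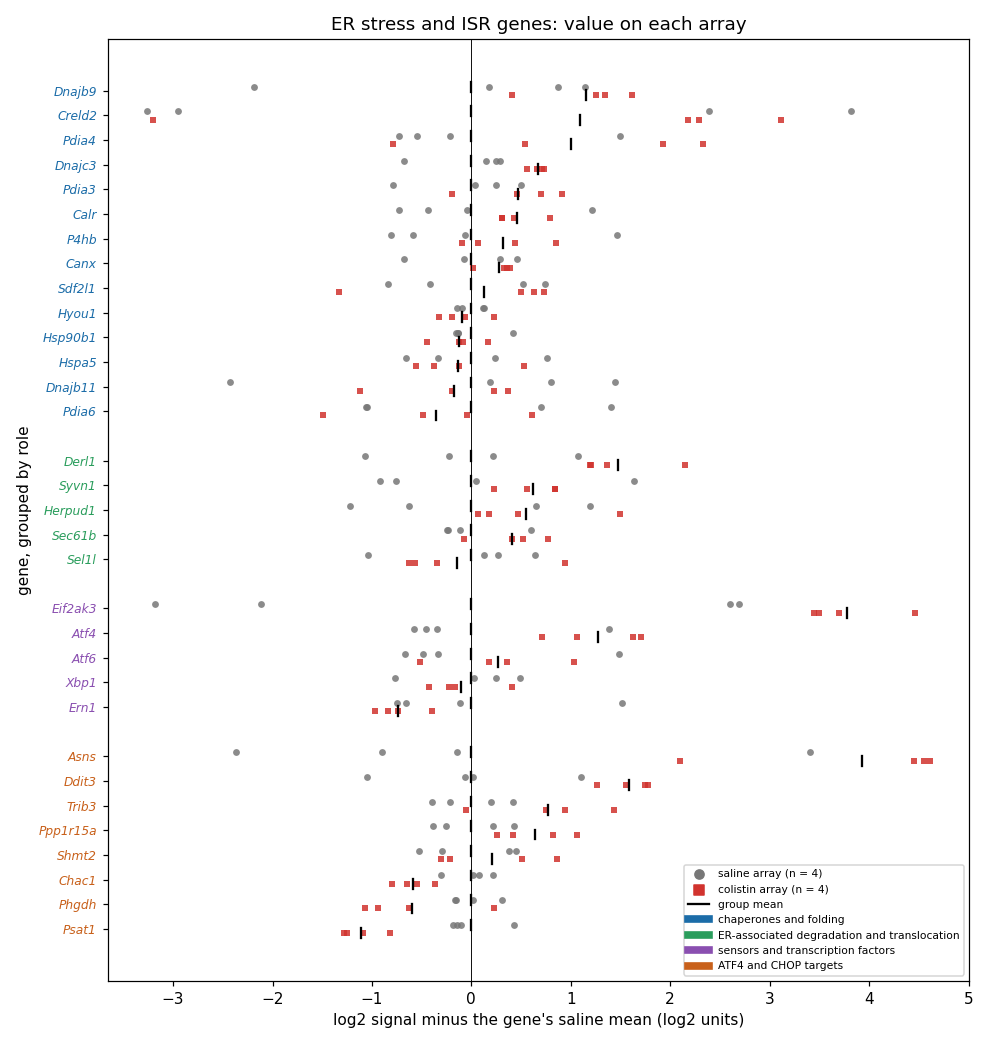
Value of each of the 32 genes on each of the 8 arrays, as log2 signal minus the gene's mean on the saline arrays. Grey circles are saline arrays, red squares colistin arrays and black bars group means; gene names are coloured by role. Most genes overlap between the groups, saline arrays spread more widely than colistin arrays, and Psat1, Chac1, Ddit3, Derl1, Dnajc3 and Eif2ak3 do not overlap.

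The precision differed by gene and by group. Saline arrays spread more than colistin arrays in 25 of the 32 genes (78.1%, against 67.2% of all genes), with a median SD of 0.80 against 0.47. Saline array 4 was the highest or lowest of its group in 22 of the 32 and colistin array 2 in 24, against 60.5% of all genes for each of these arrays. The saline arrays were also dimmer, with a 75th percentile of processed signal of 156 to 197 against 271 to 317. On them 69.3% to 75.8% of spots were well above background, against 79.1% to 83.9% on colistin arrays. The part of brightness in the differences was not tested.

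All levels below are log2 of the processed signal relative to the 75th percentile of the same array, so a level describes 1 probe across arrays and is not set against another gene. Fold changes are log2 differences, colistin minus saline, with their standard error (n = 4 per group), and the adjusted p-values are those of limma with Benjamini-Hochberg adjustment over all 12411 genes.

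Of the 14 chaperones and folding factors 0 passed and 0 had an unadjusted p under 0.05 (limma), against 2% and 22.7% of all genes. With normexp 0 of them passed as well, against 27.3% of all genes, of which most were lower (5.51% higher and 21.8% lower). In the main setting their median log2 fold change was 0.29, with 9 positive and 5 negative, and the range ran from -0.35 to 1.16. Hspa5 encodes BiP, the Hsp70 chaperone of the endoplasmic reticulum and the usual gauge of ER stress. Its level was 3.001, 2.11, 2.43 and 3.53 on saline arrays 1 to 4 and 2.22, 2.39, 2.65 and 3.30 on colistin arrays 1 to 4. The groups overlapped over nearly their whole range. The log2 fold change was -0.13 ± 0.41 (adjusted p = 0.871), with a 95% interval from -1.08 to 0.82 that leaves out a 2-fold rise and not a 2-fold fall. Its sign turned with normexp (0.03) and without saline array 4 (0.12).

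Hsp90b1, which encodes the Hsp90 chaperone GRP94, was among the steadiest of the 32. It read 3.01, 3.02, 3.02 and 3.58 on saline arrays 1 to 4 and 3.07, 3.33, 2.71 and 3.03 on colistin arrays 1 to 4, so that only saline array 4 stood apart. The difference was -0.12 ± 0.29 (adjusted p = 0.825), with a 95% interval from -0.79 to 0.55, and its sign turned without saline array 4 and with normexp. Hyou1, a large Hsp70-like exchange factor for BiP, gave -0.09 ± 0.27 with an interval from -0.71 to 0.53. Hsp90b1, Hyou1 and Xbp1 were the 3 of 32 genes whose interval lay wholly between -1 and 1, which holds for 5.17% of all genes. For these 3 a change of 2-fold in either direction lay outside the interval. An interval wholly below 1, which leaves out a 2-fold rise, was found for 8 of the 32 (25%), against 44.8% of all genes.

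Calr encodes calreticulin, a calcium-binding lectin that holds glycoproteins for folding. Its saline levels were 4.54, 3.85, 4.15 and 5.80 and its colistin levels 4.89, 5.38, 5.01 and 4.89. The colistin arrays lay inside the saline range, and the difference was 0.46 ± 0.45 (adjusted p = 0.556). Its membrane-bound partner Canx, calnexin, gave 0.27 ± 0.33. The disulfide isomerases differed among themselves by more than they differed between groups. P4hb, the founding isomerase, gave 0.32 ± 0.53, Pdia3, which works with the lectins, 0.47 ± 0.40, and Pdia4 1.002 ± 0.787. Pdia6 had the most negative value of the chaperones, with levels of -2.15, -2.13, 0.32 and -0.39 on saline arrays 1 to 4 and -1.57, -0.48, -1.13 and -2.58 on colistin arrays 1 to 4. Its groups overlapped throughout, at -0.35 ± 0.70 (adjusted p = 0.782). Pdia4 and Pdia6 went opposite ways on slide 3 (2.86 and -2.40), where both differences were largest in size.

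The J-domain co-chaperones of BiP gave one of the 6 genes without overlap. Dnajc3, also known as p58IPK and an inhibitor of eIF2 kinases, read -0.78, 0.05, 0.15 and 0.18 on saline arrays 1 to 4 and 0.46, 0.63, 0.56 and 0.61 on colistin arrays 1 to 4. Every colistin array lay above every saline array and the colistin arrays differed by little, with an SD of 0.08. The difference of 0.67 ± 0.31 did not pass (adjusted p = 0.247), and it was 0.93, 0.51 and 0.38 within slides 1, 2 and 3. Dnajb9, an IRE1-XBP1 target known as ERdj4, had the highest value of the chaperones. It read -1.17, -1.44, -2.13 and -4.49 on saline arrays 1 to 4 and -1.90, -0.69, -0.97 and -1.05 on colistin arrays 1 to 4. Saline array 4 was far below the rest and the groups overlapped, at 1.16 ± 0.73 (adjusted p = 0.359). Without single arrays the value for Dnajb9 ran from 0.43 to 1.54. Dnajb11, a further co-chaperone, gave -0.18 ± 0.82. Of the remaining small luminal factors, Sdf2l1 gave 0.13 ± 0.58, with a further probe at 0.72 ± 0.71, and Creld2 gave 1.10 ± 2.01. For Creld2, 2 of the 4 saline and 1 of the 4 colistin arrays were not well above background, and its interval from -3.52 to 5.71 leaves its level undetermined.

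The genes with an ERSE or ERSE-II match can be read together against their promoters. All 10 were tested. In the main setting 0 passed, against 2% of all genes. With normexp 0 passed, against 27.3% of all genes (5.51% higher and 21.8% lower). Log2 fold changes of the 10 in the main setting ran from -0.18 (Dnajb11) to 1.10 (Creld2) with a median of 0.09. Creld2 passed the filter on dim probes only through the colistin arrays. Its standard error was 2.01 and its value with normexp -0.19. The next highest value was 0.67 (Dnajc3). The 3 with a CARE match gave 0.55 (Herpud1), 0.77 (Trib3) and -0.59 (Chac1). These values carry no test of the elements.

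**Figure D2:**
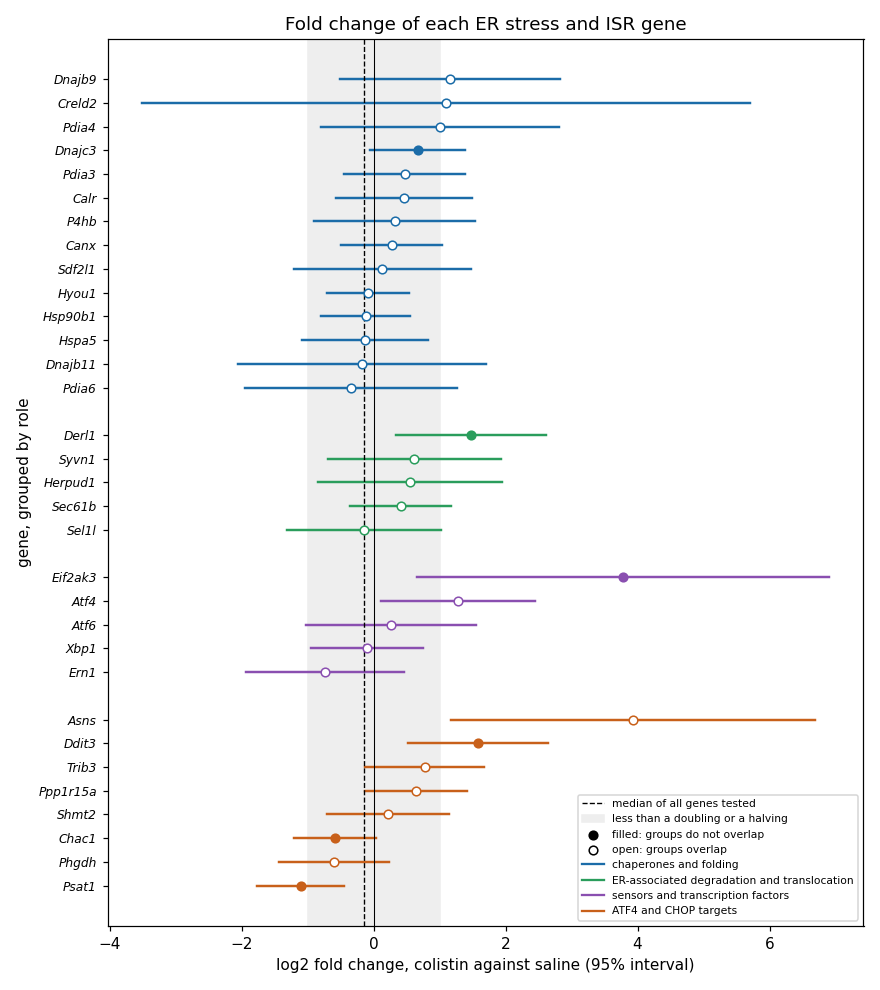
Log2 fold change of each gene, colistin against saline, with its 95% interval from limma, coloured by role; filled points mark genes whose groups do not overlap, the dashed line the median of all genes tested (-0.14) and the grey band changes of less than 2-fold. The intervals of Hsp90b1, Hyou1 and Xbp1 lie within the band, and those of Asns, Eif2ak3, Ddit3, Derl1, Atf4 and Psat1 leave out 0.

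Of the 5 genes of ER-associated degradation and translocation 0 passed in the main setting, against 2% of all genes, and their median was 0.55. Derl1, a derlin that helps to pull misfolded proteins out through the membrane, read -2.10, 0.04, -0.81 and -1.25 on saline arrays 1 to 4 and 1.12, 0.17, 0.33 and 0.16 on colistin arrays 1 to 4. All colistin arrays lay above all saline arrays, with saline array 2 close to colistin array 4. The difference was 1.48 ± 0.49, a 2.79-fold higher level (adjusted p = 0.153), and passed with normexp at 0.97 (adjusted p = 0.0496). Within slides 1, 2 and 3 it was 1.85, 0.29 and 1.45, so slide 2 showed little of it. Herpud1, a ligase-complex scaffold and a sensitive target of both branches, read -1.76, 0.66, 0.11 and -1.17 on saline arrays 1 to 4 and -0.36, 0.95, -0.47 and -0.07 on colistin arrays 1 to 4. Its groups overlapped, at 0.55 ± 0.61 (adjusted p = 0.601). The within-slide values of Herpud1 differed in sign, with 2.42 on slide 1, -1.13 on slide 2 and -0.33 on slide 3.

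Syvn1 and Sel1l encode the ubiquitin ligase HRD1 and its partner. Syvn1 gave 0.62 ± 0.57. Sel1l read -0.71, -1.08, -1.22 and -2.39 on saline arrays 1 to 4 and -1.97, -1.92, -1.69 and -0.41 on colistin arrays 1 to 4, with overlap throughout (-0.15 ± 0.51, adjusted p = 0.88). A further probe of Sel1l gave -1.37 ± 0.59 (adjusted p = 0.1996 in a fit over all probes), so its probes differ in size. Sec61b, a subunit of the channel through which proteins enter, gave 0.41 ± 0.33.

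Of the 5 sensors and transcription factors 0 passed in the main setting, against 2% of all genes. They had 3 positive and 2 negative values and a median of 0.26. Ern1, which encodes IRE1, read 0.72, 0.09, 0.17 and 2.35 on saline arrays 1 to 4 and 0.43, -0.13, 0.09 and -0.01 on colistin arrays 1 to 4. Saline array 4 was the highest and the groups overlapped, at -0.74 ± 0.52 (adjusted p = 0.413). Without saline array 4 the value for Ern1 was -0.23. The other 2 probes of Ern1 gave 0.39 ± 0.71 and 0.48 ± 1.22, opposite in sign. Xbp1, the factor that IRE1 activates, read 2.42, 2.19, 1.40 and 2.66 on saline arrays 1 to 4 and 2.00, 1.74, 1.94 and 2.57 on colistin arrays 1 to 4. The ranges overlapped nearly fully, at -0.10 ± 0.37 (adjusted p = 0.887, 95% interval from -0.95 to 0.75), and the sign turned without saline array 4. Atf6 read -0.47, -0.81, 1.34 and -0.63 on saline arrays 1 to 4 and 0.89, 0.22, 0.04 and -0.66 on colistin arrays 1 to 4. Saline array 3 stood above all others for Atf6, and the difference was 0.26 ± 0.56 (adjusted p = 0.797), with a further probe at -0.28 ± 0.91.

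Among the sensors and transcription factors Eif2ak3 had the largest value and Atf4 the next, and neither passed in the main setting. Eif2ak3, which encodes PERK, read -1.43, -7.31, -1.52 and -6.24 on saline arrays 1 to 4 and -0.43, 0.34, -0.68 and -0.63 on colistin arrays 1 to 4. All colistin arrays were higher, and 2 of the 4 saline arrays were not well above background, so the size rests on values near the background. Eif2ak3 and Creld2 passed the filter on dim probes only through the colistin arrays, and each enters the median of its role group. The log2 fold change was 3.78 ± 1.36 (adjusted p = 0.17, 95% interval from 0.65 to 6.90), and 1.21 with normexp (adjusted p = 0.0356). Within slide 3, whose saline array read -1.52, the difference was 0.99. Within slide 1, whose saline arrays read -1.43 and -6.24, it was 4.17. Within slide 2, whose saline array read -7.31, it was 6.63.

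Atf4, the factor through which the integrated stress response acts, read 2.06, 2.30, 2.19 and 4.03 on saline arrays 1 to 4 and 4.27, 4.35, 3.71 and 3.35 on colistin arrays 1 to 4. Saline arrays 1 to 3 lay below every colistin array, and saline array 4 lay among the colistin arrays. The difference was 1.28 ± 0.51, or 2.42-fold (adjusted p = 0.194), and without saline array 4 it was 1.74 (adjusted p = 0.0614). Within slides 1, 2 and 3 it was 1.30, 1.41 and 1.62. It passed with normexp at 1.38 (adjusted p = 0.0487).

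The 8 targets of ATF4 and CHOP did not move as one. None passed in the main setting, against 2% of all genes. Of the 8, 5 were positive and 3 negative, and the median was 0.43. Ddit3 encodes CHOP, the factor tied to cell death under lasting stress. It read 0.74, 0.82, 1.90 and -0.25 on saline arrays 1 to 4 and 2.35, 2.54, 2.07 and 2.58 on colistin arrays 1 to 4. Every colistin array lay above every saline array. The difference was 1.58 ± 0.46, a 2.998-fold higher level (adjusted p = 0.12, 95% interval from 0.53 to 2.64), and it passed with normexp at 1.44 (adjusted p = 0.0321). With single arrays left out the adjusted p for Ddit3 ran from 0.0593 to 0.232, and within slides 1, 2 and 3 the difference was 2.30, 1.25 and 0.56.

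The feedback genes downstream of CHOP and ATF4 had smaller positive values. Ppp1r15a, which encodes GADD34, the subunit that directs a phosphatase to eIF2 and ends the response, read -0.42, -1.10, -1.23 and -0.63 on saline arrays 1 to 4 and -0.42, -0.02, -0.59 and 0.21 on colistin arrays 1 to 4. Its groups met at -0.42 and overlapped, at 0.64 ± 0.33 (adjusted p = 0.282). Trib3, a pseudokinase that restrains ATF4 and AKT, read -3.68, -4.27, -4.09 and -3.46 on saline arrays 1 to 4 and -2.44, -3.93, -2.94 and -3.12 on colistin arrays 1 to 4. Colistin array 2 lay among the saline arrays, and the difference was 0.77 ± 0.39 (adjusted p = 0.276), with a negative sign under normexp (-0.13).

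Chac1, a glutathione-degrading enzyme that is among the strongest ATF4 targets in cultured cells, was lower and not higher. It read 0.12, -0.01, -0.08 and -0.40 on saline arrays 1 to 4 and -0.89, -0.73, -0.63 and -0.46 on colistin arrays 1 to 4. No colistin array reached a saline array, though saline array 4 and colistin array 4 were close. The difference was -0.59 ± 0.27 (adjusted p = 0.239), it was -0.60, -0.62 and -0.60 within slides 1, 2 and 3, and it passed with normexp at -0.48 (adjusted p = 0.0478).

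The amino acid enzymes among the targets differed in sign. Asns makes asparagine and is the standard reporter of amino acid shortage. It read -5.09, -3.62, -2.87 and 0.68 on saline arrays 1 to 4 and 1.89, 1.82, 1.73 and -0.63 on colistin arrays 1 to 4. Each array numbered 4 stood apart from its own group, and colistin array 4 lay below saline array 4. The difference was 3.93 ± 1.20 (adjusted p = 0.131, 95% interval from 1.18 to 6.68), it was 5.06 without saline array 4 (adjusted p = 0.0302), and 2.34 with normexp (adjusted p = 0.0381). Since 1 of the 4 saline arrays was not well above background for Asns, its size is uncertain, and within slides 1, 2 and 3 it was 4.03, 5.35 and 3.50.

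Psat1 and Phgdh catalyse consecutive steps of serine synthesis from a glycolytic intermediate. Psat1 read 5.49, 5.46, 5.54 and 6.07 on saline arrays 1 to 4 and 4.38, 4.82, 4.55 and 4.36 on colistin arrays 1 to 4. Its colistin arrays all lay below its saline arrays. The difference was -1.11 ± 0.29, or 2.16-fold lower (adjusted p = 0.0954, 95% interval from -1.77 to -0.45), the smallest p of the 32. It was -0.96, -0.91 and -1.17 within slides 1, 2 and 3, and it passed with normexp at -0.91 (adjusted p = 0.0321). Phgdh read 2.998, 2.83, 2.81 and 3.29 on saline arrays 1 to 4 and 2.35, 3.20, 1.91 and 2.04 on colistin arrays 1 to 4. Colistin array 2 kept the groups from separating, and the difference was -0.60 ± 0.36 (adjusted p = 0.338). Shmt2, the mitochondrial enzyme that passes the carbon of serine on to folate, read -0.40, 0.51, 0.57 and -0.17 on saline arrays 1 to 4 and -0.18, 0.99, 0.63 and -0.09 on colistin arrays 1 to 4, with groups that overlapped (0.21 ± 0.40, adjusted p = 0.77).

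Markers of cell types differed between the same arrays. In tissue RNA fewer cells of a type and less RNA per cell cannot be told apart. All 8 proximal tubule markers were well above background on every array, and their summed level relative to the 75th percentile was 535 to 858 on saline and 191 to 331 on colistin arrays, with 6 of the 8 genes lower on all colistin arrays, against 11.7% of all genes. The other 2 had positive values, Cubn, the endocytic receptor cubilin, 1.248 ± 0.838 and Slc5a2, the glucose carrier SGLT2, 1.145 ± 0.465, and neither passed (adjusted p = 0.388 and 0.1996). The summed level was also lower on colistin arrays for the thick ascending limb (31.8 to 70.4 on saline, 0.91 to 5.20 on colistin), the endothelium (33.4 to 53.1 and 4.81 to 7.64) and principal cells (22.3 to 38.3 and 1.30 to 13.2). The same held for intercalated cells (5.57 to 18.4 and 0.32 to 3.99), podocytes (4.89 to 17.3 and 1.14 to 2.12), fibroblasts and pericytes (21.6 to 38.7 and 6.37 to 16.6) and macrophages (7.45 to 12.5 and 4.00 to 6.67). The part of these shifts in the values of the 32 genes was not tested. Plasma cells, which have an expanded endoplasmic reticulum, were read through 7 of 9 listed markers. Their sum was 0.70 to 1.08 on saline and 0.87 to 2.58 on colistin arrays, and its highest value came mostly from Sdc1, syndecan-1, which epithelia also make (log2 level 1.24 on colistin array 2). Irf4, Sdc1 and Derl3 had positive and Mzb1, Pou2af1, Prdm1 and Tnfrsf17 negative differences. Of the 7, 0 passed (limma), against 2% of all genes. An unadjusted p under 0.05 was found for 2, both lower, against 12.2% of all genes lower. Of the 7 markers 3 were well above background on every saline array. Irf4 and Derl3 passed the filter on dim probes only through the colistin arrays. Tnfrsf17, the plasma cell receptor BCMA, was lower on every colistin array (-1.26 ± 0.32, adjusted p = 0.092).

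Further genes of the same pathways, outside the 35, were read as 6 lists. Of 15 further folding genes 0 passed, with a median of 0.40, and the extremes were Tmx1, a membrane thioredoxin (1.41 ± 1.49), and Cdnf, a neurotrophic relative of Manf (-1.93 ± 0.97). Of 17 further degradation genes 0 passed, with a median of 0.27, between Herpud2 (1.13 ± 0.81) and the ubiquitin-conjugating enzyme gene Ube2j1 (-1.14 ± 0.47). Of 14 genes of the translocon and signal peptide processing 0 passed, with a median of 0.39, between Sec11a, a signal peptidase subunit (3.60 ± 0.87, adjusted p = 0.0832), and Srprb, a subunit of the signal recognition particle receptor (-1.45 ± 0.80). Of 22 further sensors and regulators 0 passed, with a median of 0.39, between Eif2b3, a subunit of the exchange factor for eIF2 (3.96 ± 1.05, adjusted p = 0.0995), and Traf2, an adaptor of IRE1 (-1.09 ± 2.18). Of all genes tested 2% passed. In these 4 lists 2 of 15, 1 of 17, 3 of 14 and 6 of 22 genes had an unadjusted p under 0.05 (limma), against 22.7% of all genes. Eif2b3 and Tmx1 passed the filter on dim probes only through the colistin arrays, with 2 of the 4 saline arrays not well above background, so their sizes rest partly on background values. Hspa13, Ero1b, Derl3, Nck1, Eif2ak2, Eif2ak4, Atf6b and Eif2b4 also passed it only through the colistin arrays. All of these genes enter the list medians, and Eif2b3 and Nck1 the count at an unadjusted p under 0.05 (limma).

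Of 23 further targets of the integrated stress response 3 rose and 0 fell, against 1.46% of all genes higher and 0.54% lower. The median of this list was 0.08, with 12 positive and 11 negative. Bbc3 encodes the BH3-only death protein PUMA. It read -7.08, -4.62, -3.83 and -7.09 on saline arrays 1 to 4 and 0.19, 0.66, 0.17 and 0.70 on colistin arrays 1 to 4, far apart, with 2 of the 4 saline arrays not well above background. Bbc3 rose by 6.08 ± 0.77 (adjusted p = 0.0116), a size that rests partly on background values. It passed the filter on dim probes only through the colistin arrays, where it was high, and the count of 3 includes it. Gdf15, a stress-induced secreted factor, read -2.66, -0.58, -0.66 and -2.39 on saline arrays 1 to 4 and 2.68, 2.28, 2.23 and 1.38 on colistin arrays 1 to 4, and rose by 3.71 ± 0.58 (adjusted p = 0.0225). Cebpb, a basic leucine zipper factor of inflammation and injury that also pairs with ATF4, read 1.25, 1.61, 1.34 and 1.73 on saline arrays 1 to 4 and 3.38, 3.86, 3.15 and 2.92 on colistin arrays 1 to 4. It rose by 1.84 ± 0.31, or 3.58-fold (adjusted p = 0.0287). Bbc3 and Gdf15 are also targets of p53, and Cebpb of inflammatory signals. The most negative value of the list was that of Sesn2, a sestrin induced by amino acid shortage (-1.46 ± 0.83, adjusted p = 0.32).

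The 16 cytosolic tRNA ligases, many of which are ATF4 targets, had the highest median of the 6 lists. Of these 0 passed (limma; 5 of 16 had an unadjusted p under 0.05, all higher, against 22.7% of all genes in either direction), 14 were positive and 2 negative, and the median was 1.13 against -0.14 for all genes. Tars1, the threonine ligase, had the largest value, 3.51 ± 1.25 (adjusted p = 0.167), and Eprs1, the glutamate and proline ligase, the lowest, -0.57 ± 0.58. The size for Tars1 rests partly on background, since 1 of its 4 saline arrays was not well above it. Nars1, Iars1 and Vars1 also had 1 such saline array, and Lars1 and Cars1, with 2 and 3, passed the filter only through the colistin arrays. These 6 genes enter the median. Relative to the saline means the list median was 1.82, 1.08, 1.39 and 0.998 on colistin arrays 1 to 4 and -0.12, 0.60, -0.04 and 0.03 on saline arrays 1 to 4. The saline SD exceeded the colistin SD in 15 of the 16 genes.

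**Figure D3:**
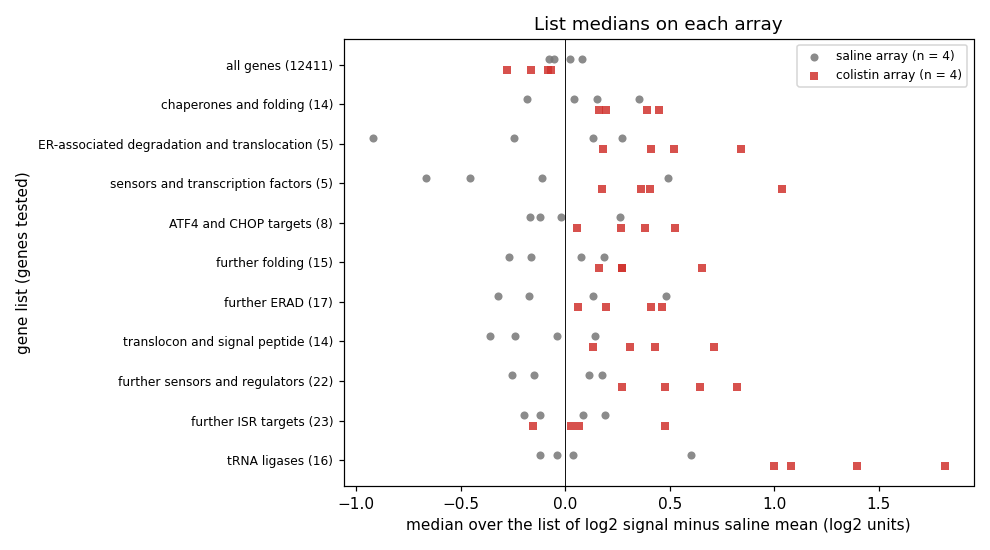
Median over each gene list of log2 signal minus the gene's saline mean, for each saline array (grey circles) and each colistin array (red squares); the number of genes tested is in brackets. The tRNA ligase medians of the colistin arrays (0.998 to 1.82) lie above those of the saline arrays. Medians of the further sensors and regulators (0.27 to 0.82 on colistin, -0.26 to 0.18 on saline arrays) also do not overlap. Both lists hold genes that passed the filter on dim probes only through the colistin arrays. These are Lars1 and Cars1 among the ligases, and Eif2b3, Nck1, Eif2ak2, Eif2ak4, Atf6b and Eif2b4 among the sensors and regulators. The lists of chaperones and of ATF4 and CHOP targets overlap between the groups.

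**Figure D4:**
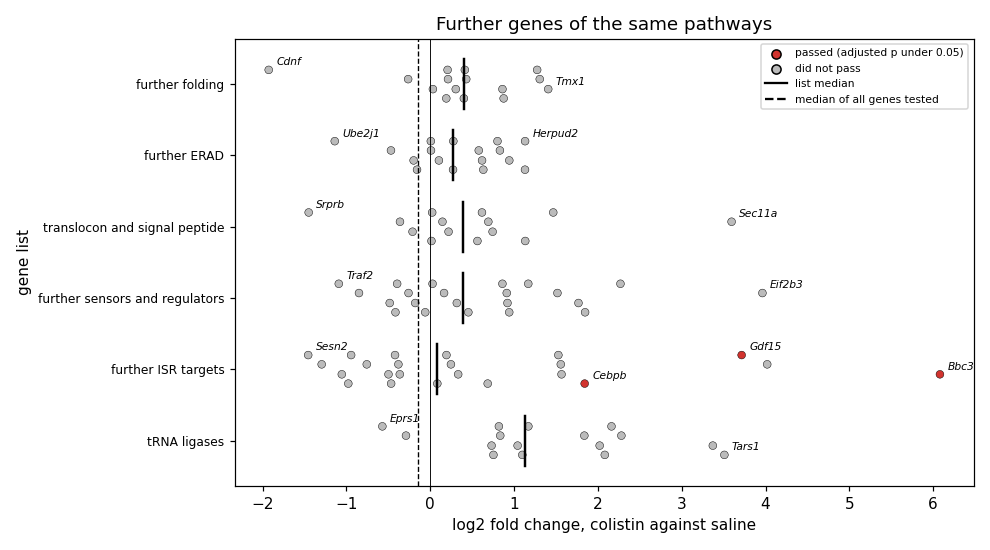
Log2 fold change of each gene in the 6 further lists, colistin against saline, with passing genes in red, list medians as solid bars and the median of all genes tested as a dashed line. Bbc3, Gdf15 and Cebpb pass, all among the further targets of the integrated stress response, and the tRNA ligases centre on 1.13.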

How the data were processed

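The authors deposited 1 scanner table per array, with spot intensity in linear units. The submitters' processing notes name Agilent Feature Extraction 10.5. Per the file headers each spot has a processed intensity, used here, beside a background-subtracted one and flags for background and outliers. The deposited table of the whole series holds log2 values, whose scale no label states. Its column differences followed those of log2 processed intensity (lowest correlation 0.9999), and the median of every probe was 0, so it served as an alternative. Control and outlier spots were left out, spots of a probe averaged, and log2 signal taken relative to each array's 75th percentile. The filter asked for 3 or more arrays of either group well above background, which 23718 of 30367 probes met. RefSeq accessions, without versions, named 18643 probes through a table of GRCr8, used for names and promoters. A gene was represented by its brightest probe. Groups were compared with lmFit and eBayes of limma 3.58.1 in R 4.3.3, two-sided, with Benjamini-Hochberg adjustment over 12411 genes and a threshold of 0.05, a procedure that was tested on simulated data. The normexp alternative used the median spot and local background signals, since the tables hold no mean signal.

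The genes, lists and alternatives were chosen with earlier results of these data known. Values on every array are given for the largest positive and negative difference in each role and for a fixed set of central genes, and, in the other lists, passing genes or the extremes are named. Values of Dnajc3, and of the further genes outside this rule, Hyou1, Tnfrsf17 and the remaining members, were added to account for all members and markers. Same-numbered arrays did not deviate together (correlations of -0.02 to 0.01 across genes), so the replicate numbers were not taken to pair them. The number of arrays limits the precision.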

Additional observations from a re-analysis of the deposited data

Results flagged for a closer look

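In 10 of 64 groups of 4 arrays, or 15.6%, 1 array lay far from the other 3. The rule was a gap to the nearest value, over the group's range, past Dixon's 95% critical value. By chance that value flags about 5% of independent groups. The groups here come from the same arrays and are not independent. No share over all genes was taken, so whether these genes exceed the rate of the arrays was not tested. Saline array 4 was the high one for Hsp90b1 (3.58), Atf4 (4.03) and Psat1 (6.07), saline array 1 the low one for Dnajc3 (-0.78) and the high one for Sec61b (2.70), and saline array 3 the high one for Atf6 (1.34). Colistin array 2 was the low one for Sdf2l1 (0.26) and Creld2 (-7.34), colistin array 1 for Canx (1.82) and colistin array 4 for Asns (-0.63).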

How the results depend on the processing

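The count of genes changed by colistin was 248 in the main setting, 3390 with normexp, 405 with an intensity trend, 143 without saline arrays 1 and 4 together and 40 with slide as a block. It was 78 to 255 with 1 array left out (98, 106, 110 and 78 without colistin array 1, 2, 3 or 4). With a replicate block it was 5, with 0 of the 32 genes and without a change in any other call of theirs, and only number 3 correlated best with its own number. The count of the 32 genes called was 7 with normexp, 1 with an intensity trend, 0 to 1 with 1 array left out and 0 in each other setting. Their median was 0.15 to 0.42 with 1 array left out. The cause of these shifts was not tested. Of the 32 genes 18 had the same sign in every alternative that gave them a value, which was 19 alternatives each, or 18 for Eif2ak3 and Asns. Signs turned with normexp for Hspa5 (0.0317), Hsp90b1 (0.0022), Hyou1 (0.0281), Creld2 (-0.19) and Trib3 (-0.13), and with probes averaged for Ern1 (0.0456) and Atf6 (-0.0078). With slide as a block Sdf2l1 turned (-0.26). Without saline arrays 1 and 4 together Hspa5 (0.37), Hsp90b1 (0.0137), Sdf2l1 (-0.50), Herpud1 (-0.37), Atf6 (-0.14), Xbp1 (0.27) and Shmt2 (-0.20) turned. With 1 array left out the sign also turned for Hspa5 (-0.35 to 0.12), Hsp90b1 (-0.22 to 0.0185), Dnajb11 (-0.99 to 0.30), Pdia6 (-0.71 to 0.12), Sdf2l1 (-0.15 to 0.62), Sel1l (-0.51 to 0.0640), Xbp1 (-0.36 to 0.0614) and Shmt2 (-0.0056 to 0.38). Probes well above background on all 8 arrays covered 29 of the 32 genes. Brightness over background limits Eif2ak3, Creld2 and Asns.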

Other observations

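Transcripts of the liver varied widely between arrays of the same group. Ttr, the thyroid hormone carrier transthyretin, read -5.45, -1.01, -4.56 and -5.40 on saline arrays 1 to 4 and -4.61, 3.68, 0.98 and -5.58 on colistin arrays 1 to 4. Alb, albumin, read -6.90, -0.60, -6.66 and -6.91 on saline arrays 1 to 4 and -3.78, 3.29, 0.11 and -8.21 on colistin arrays 1 to 4. Both were highest on colistin arrays 2 and 3 and, among the saline arrays, on array 2, and neither passed (adjusted p = 0.456 and 0.473, limma). Apoa1, the main protein of high-density lipoprotein, read -5.97, -3.08, -6.38 and -4.73 on saline arrays 1 to 4 and -1.10, 0.42, -2.93 and -2.30 on colistin arrays 1 to 4. Every colistin array was higher for Apoa1, as for 6.89% of all genes, and the difference was 3.56 ± 0.93 (adjusted p = 0.0968, limma). For Ttr and Apoa1 2 and for Alb 3 of the 4 saline arrays were not well above background. Ttr, Apoa1 and Alb thus passed the filter on dim probes only through the colistin arrays. The summed level of Alb, Apoa1 and Ttr was 0.05 to 1.27 on saline and 0.23 to 23.9 on colistin arrays.

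Atf3, a stress-induced repressor that sits beside ATF4 and CHOP, read -3.51, -3.59, -6.78 and -0.83 on saline arrays 1 to 4 and 0.93, 0.30, -0.48 and 0.61 on colistin arrays 1 to 4. Its groups did not overlap, with colistin higher, as for 6.89% of all genes, and the difference of 4.02 ± 1.10 did not pass (adjusted p = 0.105, limma). For Atf3 1 of the 4 saline arrays was not well above background.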
